A study of Homo sapiens with 6 samples.

Results

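The genes described here encode the inhibitors of the cyclin-dependent kinases (CDKs), together with CDKN3 and RB1. They were taken by symbol, namely CDKN1A, CDKN1B and CDKN1C of the CIP/KIP family, CDKN2A, CDKN2B, CDKN2C and CDKN2D of the INK4 family, the phosphatase gene CDKN3, and RB1. Each of the 9 symbols had 1 row among the 58219 genes of the deposited table, and all 9 passed the filter on low values.

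CDKs bound to cyclins drive a cell through G1 and into S phase by phosphorylating RB, the protein of RB1, which otherwise holds E2F transcription factors in check. INK4 proteins bind CDK4 and CDK6 and keep them from D-type cyclins. CIP/KIP proteins bind complexes of cyclins with CDK2 and other CDKs. In fibroblasts p21 (CDKN1A), a transcriptional target of p53, and p16 (CDKN2A) are the inhibitors best known for the arrest of senescence.

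RNA of IMR90 cells was sequenced after poly(A) selection. IMR90 cells are human lung fibroblasts with a finite lifespan. Here they carried ER-RAS, given in the design text as ER-RASG12V, in which oncogenic RAS is joined to oestrogen receptor sequence so that 4-hydroxytamoxifen (4OHT) switches it on. The 2 groups were cells in 100 nM 4OHT for 30 h (3 libraries, called uncommitted in the labels) and for 72 h (3 libraries, called committed). Sample titles write the times as 1.5 and 3 days. All 6 libraries carry the construct and received 4OHT, so commitment and time in 4OHT cannot be told apart, and no untreated cells enter the comparison. The promoter of the construct, whether the cells were 1 clone, and whether replicates A, B and C were separate cultures are not stated in the labels. The p-values therefore measure only how far these libraries spread, which may be technical.

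Each library held 13221152 to 15703544 reads assigned to genes. The first principal component held 81.3% of the variance and set the groups apart, and the second held 7.0% and set both libraries of letter C apart from the others. All 10 fibroblast markers were present, at means of 490 to 77633 normalised counts. At 72 h, 7 of the 10 fell, beside 25.0% of all genes tested, and PDGFRA, DCN and LUM did not pass. Their summed level ranged from 269772 to 286736 at 30 h and from 111621 to 130603 at 72 h. Its largest parts were FN1 and VIM, with means of 97683 and 96300 at 30 h and 57583 and 40009 at 72 h. The 6 leukocyte markers summed to 5.08 to 13.7 at 30 h and 5.11 to 13.6 at 72 h, with CD3E at 0 reads. The 6 epithelial markers summed to 21.1 to 77.2 and 77.7 to 122, with KRT5 and KRT14 at 0 reads. Of these CLDN4 rose 4.24-fold, from 18.5 ± 6.91 to 77.5 ± 5.18, and KRT19 had 43 and 40 reads in the B libraries of 30 h and 72 h, against 1 to 5 in the others. The 5 endothelial markers summed to 669.7 to 933 and 410.1 to 493, mostly from TEK, with CDH5 at 0 reads. The part of these shifts in the results below was not tested. In bulk RNA, fewer cells with a transcript and less of it per cell cannot be told apart.

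Promoter windows from RefSeq (GRCh38.p14), 250 bases before to 30 after a listed start, were found for 8 of the 9 genes, in 11 windows. The windows below are shown because CDKN2A has a pair of starts whose reads the gene count merges, because CDKN1A was the gene that rose, and because CDKN2C and CDKN3 had the largest falls. Capitals mark matches, on either strand, to the E2F letters TTCCCGC, TTTCGCGC, TTTGGCGC or TTTGCCGC, to the cell cycle homology region TTTGAA, to CCAAT, to the GC box GGGCGG, to the E-box CACGTG and to TATAAA, and neighbouring GC boxes can share bases. The motifs, and the CDKN2C window among the 3 of that gene, were chosen after the sequences and results were seen.
CDKN1A, chr6:36678464-36678743, plus strand: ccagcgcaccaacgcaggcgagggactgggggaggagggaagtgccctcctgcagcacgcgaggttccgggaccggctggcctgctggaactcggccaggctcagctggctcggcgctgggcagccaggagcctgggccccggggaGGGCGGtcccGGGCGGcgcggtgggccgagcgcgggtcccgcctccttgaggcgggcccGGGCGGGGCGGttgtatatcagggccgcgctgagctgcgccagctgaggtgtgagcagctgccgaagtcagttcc
CDKN2C, chr1:50968456-50968735, plus strand: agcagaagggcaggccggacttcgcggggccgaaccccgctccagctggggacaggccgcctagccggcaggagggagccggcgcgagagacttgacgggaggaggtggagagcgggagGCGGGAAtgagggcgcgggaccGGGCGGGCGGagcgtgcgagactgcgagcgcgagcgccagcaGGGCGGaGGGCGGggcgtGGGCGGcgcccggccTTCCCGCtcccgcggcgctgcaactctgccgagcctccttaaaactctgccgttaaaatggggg
CDKN3, chr14:54396757-54397036, plus strand: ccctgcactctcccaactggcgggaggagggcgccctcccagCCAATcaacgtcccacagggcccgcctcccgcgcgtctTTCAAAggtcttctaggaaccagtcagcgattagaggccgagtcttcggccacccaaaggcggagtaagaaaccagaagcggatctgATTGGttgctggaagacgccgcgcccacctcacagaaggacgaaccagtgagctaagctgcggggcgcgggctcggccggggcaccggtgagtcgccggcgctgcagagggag
CDKN2A, start of the p16 transcript, chr9:21974828-21975107, minus strand: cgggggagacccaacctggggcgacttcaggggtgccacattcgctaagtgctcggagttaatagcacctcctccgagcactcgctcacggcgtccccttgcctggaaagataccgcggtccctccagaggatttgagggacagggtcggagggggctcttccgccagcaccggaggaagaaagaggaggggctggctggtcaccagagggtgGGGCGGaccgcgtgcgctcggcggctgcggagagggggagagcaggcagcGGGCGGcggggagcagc
CDKN2A, start of the ARF transcript, chr9:21995295-21995574, minus strand: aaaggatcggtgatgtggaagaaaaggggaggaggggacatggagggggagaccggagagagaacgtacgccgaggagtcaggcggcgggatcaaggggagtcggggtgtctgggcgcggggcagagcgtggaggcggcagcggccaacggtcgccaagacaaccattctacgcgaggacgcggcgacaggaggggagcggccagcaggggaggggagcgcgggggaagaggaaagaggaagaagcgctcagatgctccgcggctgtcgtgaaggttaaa

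Of the 11 windows, this CDKN2C window, 1 of 3 listed for that gene, held the only matches to TTCCCGC, in number 2, and no window held one of the other E2F letters or TATAAA. Among 35116 promoter windows of the same length, 6.15% held TTCCCGC and 1.64% one of the others. The CDKN3 window held 1 match to TTTGAA, which 14.5% of all windows held, and 2 to CCAAT, which 33.6% held. The CDKN1B window also held 2 matches to CCAAT, and those of CDKN2D and another CDKN2C start 1 each. CDKN1A had 4 GC boxes and the CDKN2C window 5, and 44.1% of all windows had at least 1. CDKN2D had 3, CDKN2B and the p16 start 2 each, and CDKN1B and another CDKN2C start 1 each. A match is a run of letters and was not tested as a binding site. Gene counts do not show which start was used. The 1 window listed for RB1, chr13:48476200-48476479, lies inside the gene, far downstream of its start at 48303751, so the promoter at that start was not examined.

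At 72 h, 1 of the 9 genes, CDKN1A, was higher, 7 were lower and CDKN1C did not pass the test. The 8 calls stand against 48.6% of 13315 genes called by limma at a Benjamini-Hochberg adjusted p under 0.05, 23.6% higher and 25.0% lower at 72 h. All 4 INK4 genes fell. The median log2 fold change of the 9 genes was -0.60, against 0.01 for all genes tested. Groups did not overlap for 8 of the 9 genes, against 59.2% of genes tested. Of these 8, 7 were lower at 72 h and 1 higher, against 29.9% and 29.3% of genes tested. Values are normalised counts (reads divided by a size factor of the library), and log2 fold changes are of 72 h over 30 h after adding 1, with limma's standard error (SE).

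**Figure D1:**
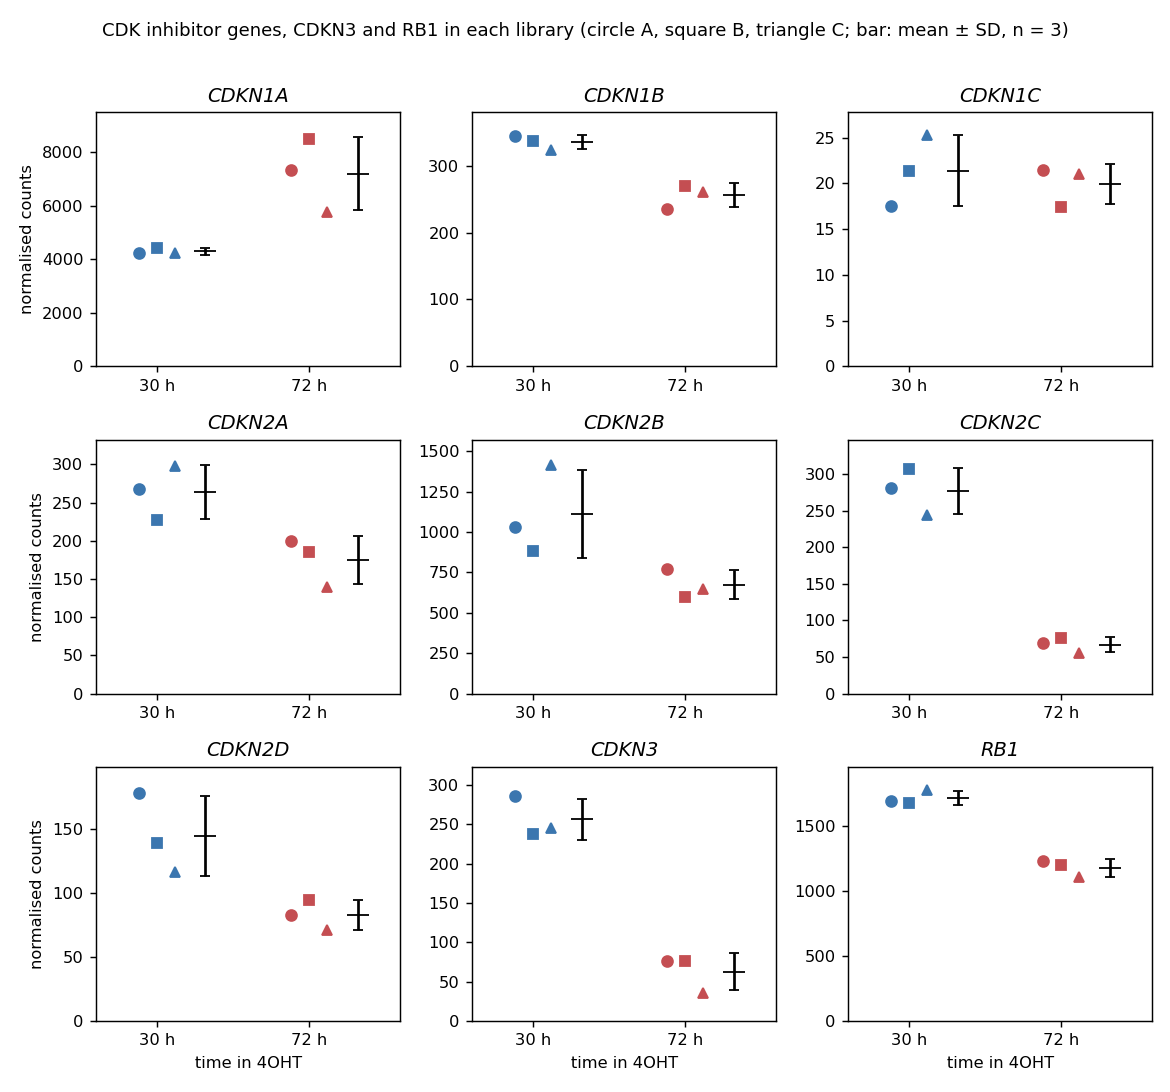
Normalised counts (vertical axes from 0, a scale for each gene) of the 9 genes in each library at 30 h and 72 h of 4OHT, with replicate letters as symbols and the mean ± SD of 3 libraries beside them. CDKN1A lies higher at 72 h, CDKN1C overlaps between the groups, and the other 7 lie lower at 72 h in all 3 libraries.

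CDKN1A (ENSG00000124762.13, chr6:36676460-36687339) encodes p21, which inhibits CDK2 complexes and binds the replication clamp PCNA. It had 4238, 4426 and 4223 normalised counts in 30 h libraries A, B and C, and 7327, 8509 and 5783 at 72 h. The libraries of 30 h lay close together and all below those of 72 h, among which C was the lowest. CDKN1A rose 1.66-fold, from 4295 ± 114 to 7206 ± 1367 (mean ± SD, n = 3), with a log2 fold change of 0.73 ± 0.131 (SE) and adjusted p = 0.00346. Only 2.51% of genes tested had a higher mean of normalised counts, not divided by exon length, and 91.6% had a lower log2 fold change. The spread between libraries was 2.65% of the mean at 30 h and 19.0% at 72 h. Of its exons, 146 of 3050 bases overlap the non-coding gene DINOL on the opposite strand.

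CDKN1B (ENSG00000111276.10, chr12:12715058-12722371) encodes p27, a CIP/KIP inhibitor that is controlled largely through its breakdown. It had 345, 337 and 324 normalised counts in the libraries of 30 h and 236, 270.3 and 261 in those of 72 h. The groups did not overlap, and the gap between them, from 324 down to 270.3, was larger than the range within either. CDKN1B fell 1.31-fold, with log2 fold change -0.39 ± 0.0857 (SE) and adjusted p = 0.00414, the smallest change among the 8 genes called.

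CDKN1C (ENSG00000129757.12, chr11:2883213-2885881) encodes p57, the inhibitor of this family from an imprinted region. It had 17.5, 21.3 and 25.3 normalised counts at 30 h and 21.5, 17.4 and 20.98 at 72 h, which rest on 18 to 24 reads per library. The groups overlapped throughout. The log2 fold change was -0.09 ± 0.242 (SE) with adjusted p = 0.795. A fall of the size seen for CDKN1B lies within 2 SE of that value and was not detectable at this depth. Its direction turned without 30 h replicate C (0.04) or 72 h replicate B (0.00).

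CDKN2A (ENSG00000147889.17, chr9:21967753-21995301) encodes p16 and, from the other start shown above, ARF, which acts upstream of p53. It had 268, 227 and 297 normalised counts at 30 h and 199, 186 and 140 at 72 h (139.5 before rounding). All 3 libraries of 72 h lay below all 3 of 30 h, with C the highest at 30 h and the lowest at 72 h. CDKN2A fell 1.52-fold, with log2 fold change -0.60 ± 0.151 (SE) and adjusted p = 0.00899. Without both libraries of letter C the log2 fold change was -0.36 with adjusted p = 0.0165. The counts do not separate p16 from ARF, and 341 of 4329 exon bases overlap the antisense gene CDKN2B-AS1.

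CDKN2B (ENSG00000147883.10, chr9:22002903-22009363) lies beside CDKN2A and encodes p15, an inhibitor induced by TGF-beta. It had 1032, 886 and 1414 normalised counts at 30 h and 773, 598 and 650.3 at 72 h. The groups did not overlap, and library C was far the highest at 30 h. CDKN2B fell 1.63-fold, with log2 fold change -0.70 ± 0.187 (SE) and adjusted p = 0.0224, and with adjusted p = 4.8e-05 to 0.0809 over the alternatives tried. The call was lost without 72 h replicate B (adjusted p = 0.0691) or C (0.0809), and without both libraries of letter C the adjusted p was 0.0128. Of the stretches of 50 bases in annotated transcripts, 0.681% of those of CDKN2A occur in CDKN2B and 0.765% of those of CDKN2B in CDKN2A, so few reads could be shared between them.

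CDKN2C (ENSG00000123080.10, chr1:50960745-50974633) encodes p18, an INK4 protein whose transcript is known to follow E2F activity in cycling cells. It had 281, 307 and 244 normalised counts at 30 h and 68.5, 75.9 and 55.6 at 72 h. Every library of 72 h was far below the lowest of 30 h. CDKN2C fell 4.13-fold, from 277 ± 31.8 to 66.6 ± 10.3 (n = 3), with a log2 fold change of -2.04 ± 0.146 (SE) and adjusted p = 5.19e-06. Of all genes tested, 1.39% were called and at least 4-fold lower, and 1.28% had a lower log2 fold change than CDKN2C.

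CDKN2D (ENSG00000129355.6, chr19:10566462-10569059) encodes p19, the remaining INK4 protein. It had 178, 139 and 116 normalised counts at 30 h and 82.8, 94.2 and 71.3 at 72 h. The groups did not overlap, and 30 h library C lay nearest to those of 72 h. CDKN2D fell 1.72-fold, with log2 fold change -0.78 ± 0.176 (SE) and adjusted p = 0.00475.

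CDKN3 (ENSG00000100526.19, chr14:54396849-54420218) encodes KAP, a phosphatase that removes the activating phosphate of CDK2 and whose transcript peaks late in the cell cycle, so it is no inhibitor of the CIP/KIP or INK4 kind. It had 287, 238 and 246 normalised counts at 30 h and 76.6, 75.9 and 35.7 at 72 h. Libraries A and B of 72 h were nearly equal and C was lower still, at 34 reads. CDKN3 fell 4.26-fold, with log2 fold change -2.09 ± 0.292 (SE) and adjusted p = 0.00104. Without 72 h replicate C the log2 fold change was -1.73. It and CDKN2C were the 2 genes of the 9 past 4-fold.

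RB1 (ENSG00000139687.13, chr13:48303751-48481986) encodes RB, the substrate on which these inhibitors converge. It had 1693, 1675 and 1774 normalised counts at 30 h and 1232, 1196 and 1102 at 72 h. The range within each group was small and the groups did not overlap. RB1 fell 1.46-fold, a log2 fold change of -0.54 ± 0.0596 (SE), the smallest SE of the 9, with adjusted p = 7.07e-05.

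**Figure D2:**
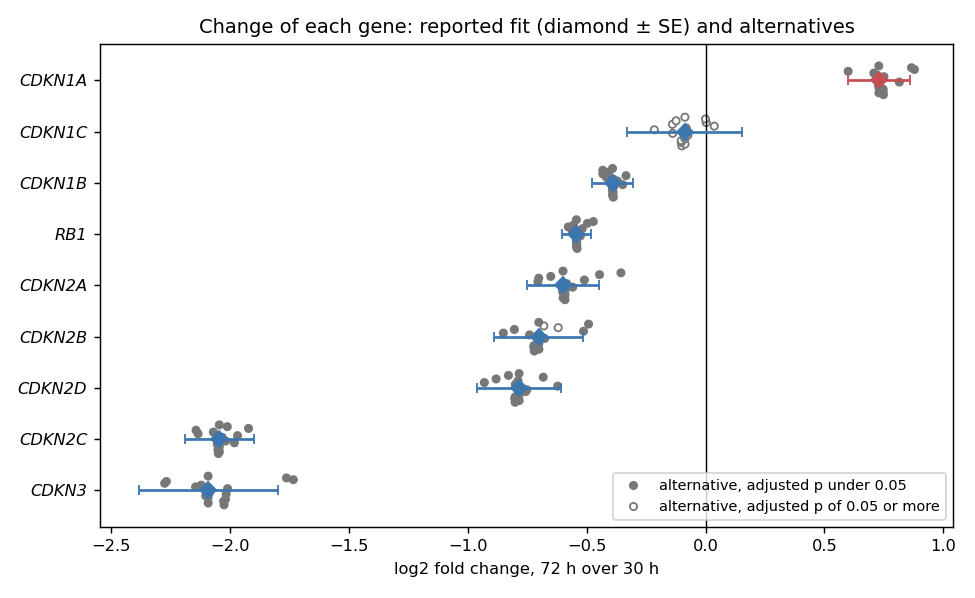
Log2 fold change of 72 h over 30 h (horizontal axis) for each gene, as reported (diamond with limma's SE) and under each of 17 alternatives (circles, filled where the adjusted p was under 0.05). CDKN2C and CDKN3 lie near -2, CDKN1A near 0.73, and open circles occur for CDKN1C and, in 2 settings, CDKN2B.

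Both libraries of letter C stood apart on the second component, so each gene was compared without them. Without them, at 2 libraries per group, all 8 calls kept their direction and stayed past the threshold. The log2 fold change was then 0.87 for CDKN1A, -0.49 for CDKN2B, -2.01 for CDKN2C and -1.76 for CDKN3. At 72 h library C was the lowest of the 3 for 6 of the 9 genes and the highest for 0. In the authors' deposited table, made with DESeq2, the log2 fold changes were 0.75 for CDKN1A, -0.39 for CDKN1B, -2.05 for CDKN2C, -2.03 for CDKN3 and -0.54 for RB1.

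Levels of different genes were compared as normalised counts per kilobase of annotated exon. CDKN1A was the most abundant at both times, at 1408 ± 37.3 (SD, n = 3) per kilobase at 30 h and 2363 ± 448 at 72 h. CDKN2B followed at 30 h with 274 ± 67.2 and RB1 with 266 ± 8.13, and their ranges overlapped. CDKN3 came next at 140 ± 14.3 per kilobase (139.8 before rounding), above CDKN1B at 119 ± 3.84 with no overlap. CDKN2D at 96.2 ± 20.98 overlapped both CDKN1B above it and CDKN2C below it at 83.5 ± 9.57. CDKN2A at 61.0 ± 8.22 lay below CDKN2C in all 3 libraries, and CDKN1C was the lowest of the 9 at 8.63 ± 1.57 per kilobase.

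At 72 h the order per kilobase below CDKN1A was RB1 at 182 ± 10.4, CDKN2B at 166 ± 22.1, CDKN1B at 91.0 ± 6.31, CDKN2D at 55.1 ± 7.60, CDKN2A at 40.4 ± 7.24, CDKN3 at 34.2 ± 12.8, CDKN2C at 20.1 ± 3.09 and CDKN1C at 8.05 ± 0.886. CDKN3 moved from place 4 to place 7 and CDKN2C from place 7 to place 8. RB1 overlapped CDKN2B, CDKN2A overlapped CDKN3, and CDKN3 overlapped CDKN2C, while the other neighbours in this order did not overlap. The exon lengths come from GENCODE 29 and join the exons of all annotated transcripts of a gene. For CDKN2A they pool the exons of p16 and ARF, 4329 bases in 10 blocks. Its place among these genes, its share of the INK4 level and its ratios therefore depend on that choice of length. How far this holds for the other genes was not tested. The GENCODE 29 versions of CDKN1C and RB1 differ from those in the table, so their values per kilobase are also approximate.

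**Figure D3:**
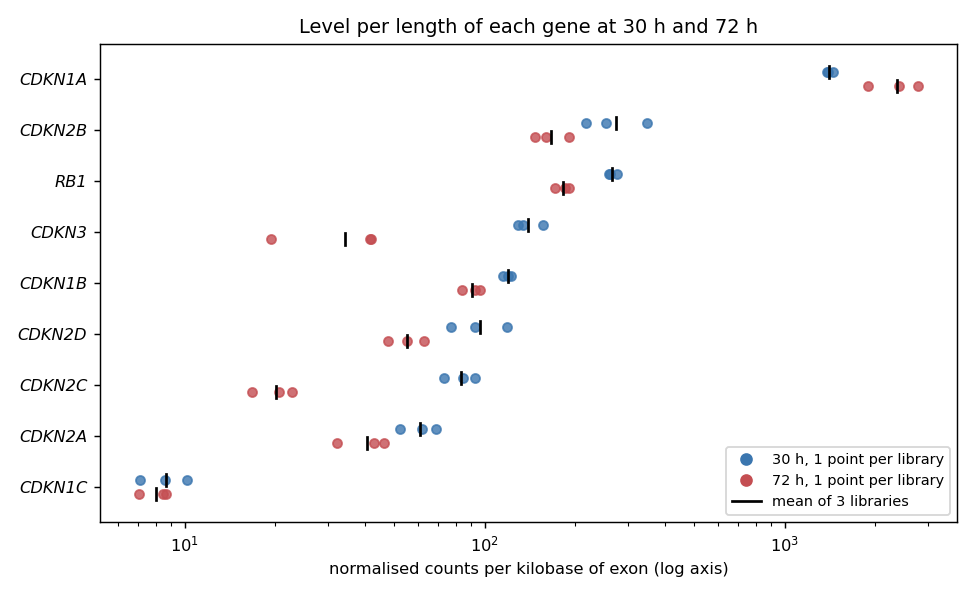
Normalised counts per kilobase of exon (logarithmic axis) for the 9 genes in each library at 30 h and 72 h, ordered by the mean at 30 h, with black bars for the mean of 3 libraries. CDKN1A lies above all others at both times, and CDKN3 and CDKN2C move furthest down.

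The make-up of each family differed between the times. CDKN1A held 91.7% ± 0.205 (SD, n = 3) of the CIP/KIP level per kilobase at 30 h and 95.9% ± 0.832 at 72 h, and CDKN1B 7.77% and 3.78%. The ratio of CDKN1A to CDKN1B per kilobase was 11.3, 12.1 and 12.02 in the libraries of 30 h and 28.6, 29.01 and 20.4 in those of 72 h. Within the INK4 family CDKN2B held the largest share at both times, 52.7% ± 7.49 and 59.0% ± 4.83, with overlapping ranges. The share of CDKN2A was 11.8% ± 0.316 at 30 h and 14.3% ± 1.55 at 72 h, higher at 72 h with no overlap. The share of CDKN2C went from 16.5% ± 3.68 to 7.14% ± 0.994 with no overlap, while that of CDKN2D was 18.9% ± 4.78 and 19.6% ± 2.72.

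Summed per kilobase, the 3 CIP/KIP genes came to 1519, 1579.9 and 1509.8 at 30 h and 2495, 2893 and 1997 at 72 h. The 4 INK4 genes came to 519.6, 456 and 568 at 30 h and 312, 276 and 257 at 72 h. Neither sum overlapped between the times, and the CIP/KIP sum was higher and the INK4 sum lower at 72 h. The CIP/KIP sum is mostly CDKN1A (91.7% at 30 h and 95.9% at 72 h). CDKN1B fell (log2 fold change -0.39) and CDKN1C did not pass, so the higher sum is that of CDKN1A and not of the whole family. The CIP/KIP sum was 3.02 ± 0.412 (SD, n = 3) times the INK4 sum at 30 h and 8.75 ± 1.51 times at 72 h. The ratio of CDKN2B to CDKN2A, the neighbours on chromosome 9, was 4.45 ± 0.540 at 30 h and 4.18 ± 0.770 at 72 h, and its ranges overlapped. These sums and ratios are descriptions of the values above and were not tested.

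**Figure D4:**
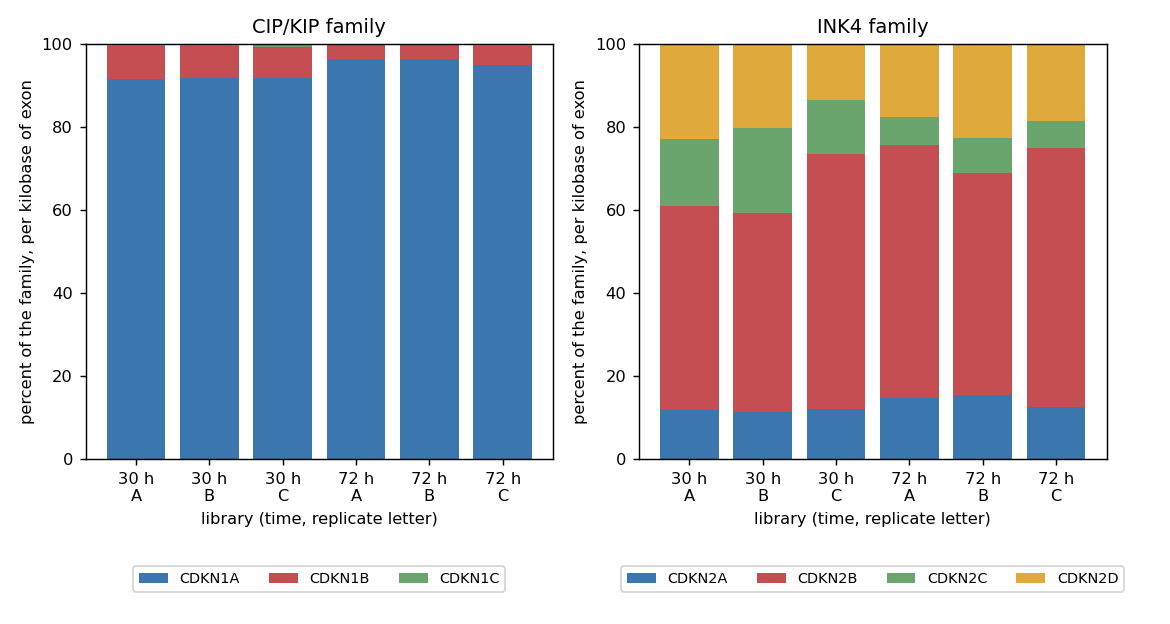
Share of each gene in the level per kilobase of its family (vertical axis, percent) in each library, for the CIP/KIP genes on the left and the INK4 genes on the right. CDKN1A takes over 91% of its family in every library, and the CDKN2C part is smaller in all 3 libraries of 72 h.

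Other genes of the pathway were taken from 7 lists, which were chosen with earlier results of these data known. Of these lists 132 distinct genes were tested, 28 rose and 54 fell. Of all genes tested, 23.6% rose and 25.0% fell. Of 14 genes of G1 cyclins and their kinases, 8 fell, 1 rose and 5 did not pass, with a median log2 fold change of -0.46. CCNA2, the gene of cyclin A2, fell from 1306 ± 163 to 505 ± 137 (n = 3), and CDK2, the kinase that p21 and p27 inhibit, from 2182 ± 99.2 to 918 ± 70.5. Of the kinases that INK4 proteins bind, CDK6 had a log2 fold change of -0.73, adjusted p = 8.08e-05, and CDK4 0.07 (adjusted p = 0.48, not passed). CCND3, the gene of cyclin D3, fell with a log2 fold change of -0.69. Of the 14 only CCNE1, which encodes cyclin E1, rose (0.69), and it was picked out after its value was known.

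Of 19 genes of pocket proteins, E2F factors and the DREAM complex, which represses cell cycle genes, 11 fell, 5 rose and 3 did not pass (median -0.41). The share that rose, 26.3%, is near that of all genes tested (23.6%), and 57.9% fell, beside 25.0% of all genes tested. Among those averaging at least 50 normalised counts at 30 h, the largest falls were those of E2F8, a repressor of E2F targets (-1.74), FOXM1 and MYBL2, activators of mitotic genes (-1.58 and -1.44), and TFDP2, a partner of E2F proteins (-0.90). RBL1, the gene of the RB relative p107, fell with a log2 fold change of -0.82, and RBL2, of the relative p130, rose with 0.31. RBL2 and the others that rose, E2F4, E2F5, E2F6 and RBBP4 (0.37, 0.49, 0.61 and 0.39), were named after their values were seen, as was RBL1. E2F5 did not pass without 72 h replicate B (adjusted p = 0.0507).

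Of 20 E2F target genes of S phase, 19 fell, 0 rose and 1 did not pass, with a median log2 fold change of -0.88. These are 95.0% of a list chosen with earlier results of these data known, beside 25.0% of all genes tested. TK1, a thymidine kinase, fell from 666 ± 127 to 214 ± 68.8, POLE2, a polymerase subunit, from 112 ± 28.9 to 38.7 ± 14.5, CHEK1, a checkpoint kinase, from 744 ± 50.6 to 294 ± 27.6, and GINS2, a helicase subunit, from 249.9 ± 47.2 to 105 ± 28.2. MCM4, which did not pass, had a log2 fold change of -0.27 and was picked out with its value known. Within 72 h, TK1 (205, 287 and 150.0 in A, B and C) and CDKN2C were highest in B and lowest in C, as CDKN1A was. POLE2 and GINS2 had that order too, while CHEK1 (311, 310 and 262) was highest in A. This order was picked out with the values known.

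Of 17 genes for the breakdown and modification of p21 and p27, 7 fell, 2 rose and 8 did not pass (median -0.09). These are 41.2% falling and 11.8% rising, beside 25.0% and 23.6% of all genes tested. CDC20, an activator of the anaphase-promoting complex, fell from 1419 ± 181 to 447 ± 177, and CKS1B and SKP2, which together target p27 for breakdown, had log2 fold changes of -1.44 and -0.84. RNF123, a ligase that acts on p27 in G1, rose with 0.66. DDB1, the other one that rose, was picked out with its value known (0.13), and its call was lost in 5 of the 6 fits without 1 library, all but that without 30 h replicate C (adjusted p = 0.0637 to 0.15), and without a filter, without limma's options, by DESeq2 and in the authors' deposited table (0.0614 to 0.0971).

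Of 20 polycomb genes and other regulators of the INK4 locus, 5 rose, 3 fell and 12 did not pass (median 0.07). These are 25.0% and 15.0% of the list, so the share that rose is near that of all genes tested (23.6%) and the share that fell is below theirs (25.0%). KDM6B, the demethylase that removes the polycomb mark, rose from 469.8 ± 58.9 to 1039.7 ± 74.4. The 3 that fell were BMI1 and EZH2, repressors of this locus (-0.36 and -0.45), and ID3, an inhibitor of helix-loop-helix factors (-1.23). Without 30 h replicate B the EZH2 call was lost (adjusted p = 0.0599), and without 30 h replicate C that of ID3 (0.0540), which was also lost with no filter on low values (0.0578). The others that rose, RING1, EZH1, SUZ12 and KDM2B (0.25 to 0.31), were named after their values were seen, and only the call of KDM2B held without each library in turn. CDKN2A and CDKN2B, at the locus these genes act on, were lower in the same libraries of 72 h.

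Of 17 transcription factors known at CDKN1A, CDKN1B or CDKN2B that were tested, 6 rose, 2 fell and 9 did not pass (median 0.29). The list thus had 35.3% rising and 11.8% falling, beside 23.6% and 25.0% of all genes tested. CEBPB, of inflammatory genes, rose from 1162 ± 99.6 to 1965 ± 109.6, SMAD7, the inhibitory SMAD of TGF-beta signalling, had a log2 fold change of 0.67, and KLF6 of -1.20. SMAD3, a mediator of TGF-beta signalling and the other one that fell, was named after its value was seen (-0.47). KLF4, another Krüppel-like factor, had 0.86 (adjusted p = 0.0259). It did not pass without 30 h replicate B (0.0965), 72 h replicate A (0.0647) or 72 h replicate C (0.0743), nor, with all 6 libraries, without limma's trend and robust options (0.0556).

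Of 25 p53 target genes other than CDKN1A, 9 rose, 4 fell and 12 did not pass, with a median log2 fold change of 0.07. The list thus had 36% rising and 16% falling, beside 23.6% and 25.0% of all genes tested. GDF15, a stress cytokine, had 1.70, TNFRSF10B, a death receptor, 1.09 and SUSD6 0.91, against 0.73 for CDKN1A. BTG2, an antiproliferative gene, had 1.16 (adjusted p = 0.0182). It did not pass without 30 h replicate A, 72 h replicate A or 72 h replicate B, with adjusted p from 0.0653 to 0.0739. The 4 that fell, FAS, GADD45A, POLH and TP53I3, were named after their values were seen, with -0.61, -0.57, -0.47 and -0.39. The groups overlapped for FAS, whose call did not hold without 30 h replicate A or B, or 72 h replicate A or C (adjusted p = 0.0519 to 0.127), nor with all 6 libraries and without the trend and robust options (0.0672).

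**Figure D5:**
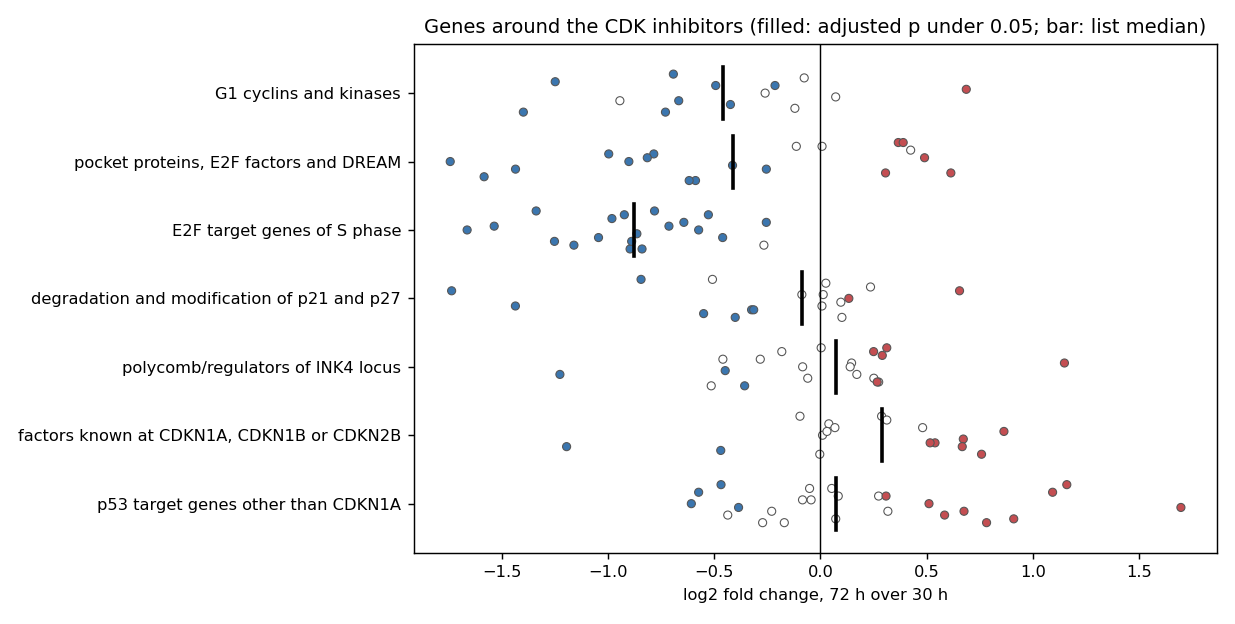
Log2 fold change of 72 h over 30 h (horizontal axis) for each tested gene of the 7 lists, filled red where it rose and blue where it fell at an adjusted p under 0.05, with a bar at the list median. The E2F targets lie all below 0, at a median of -0.88, and the p53 targets on both sides of it.

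For CDKN1A, CDKN2B and CDKN2C the protein-coding genes with the most similar pattern were found by the Euclidean distance between log2 values centred on each gene's mean over the 6 libraries, among 11906 other genes. Nearest to CDKN1A were RAB3A, RALA and PPIF, at distances of 0.18, 0.2 and 0.2. Nearest to CDKN2B were MDK, ZNF385D and TRPA1, at 0.17, 0.18 and 0.25. Nearest to CDKN2C were C12orf75, CYR61 and AXL, at 0.12, 0.15 and 0.18. Among the 9 genes themselves the closest pair was CDKN1B and RB1, at 0.32, and the distance was 0.46 between CDKN2A and CDKN2B and 0.67 between CDKN2C and CDKN3. Such distances describe 6 libraries in 2 groups and follow mainly the size of the change between them.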

How the data were processed

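The signal values of the 6 libraries are read counts per gene scaled by a size factor for each library before the authors deposited them, per the file headers and values. The submitters' processing notes list Trimmomatic 0.35, STAR 2.5.1b, DESeq2 1.18.1 and the build GRCh38 (hg38). Neither the labels nor the headers name a read counter, annotation or strand setting. Beside these values the authors deposited log2 fold changes and their errors, a score (the Wald statistic), and each p-value, raw and adjusted. These serve only as an alternative and where that table is named.

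Whole reads were recovered, 100% of values above 0 being whole multiples, within 0.01, of the smallest in the library. By edgeR 4.0.16 on those reads, 3162 genes rose and 3331 fell. The main test was limma 3.58.1 (trend, robust) in R 4.3.3 on log2(value + 1), for the 13315 genes that reached 10 normalised counts in 3 or more libraries, with Benjamini-Hochberg adjustment over all of them and a threshold of 0.05. It called 3144 genes higher and 3328 lower. An exact permutation test of 3 against 3 libraries cannot go below 0.1. Members, lists and named genes were chosen with earlier results of these data known. All 9 members were named, and of each list up to 4 called genes, taken by size of change where the higher group averaged 50 or more. Libraries within a group differed beyond counting noise (chi-square per degree of freedom of 3.34 to 16.3). Libraries A and B gave 3.34 at 30 h and 4.16 at 72 h, and pairs with C gave 11.6 to 16.3. Each library was counted once, but these values do not show whether the libraries were separate cultures. In simulated data, 65, 67 and 66 of 13175 genes were changed 1.5-, 2- and 4-fold. There 21 of 187 calls by the limma steps were false, more than the threshold of 0.05 stands for. That share depends on how many genes change, and 48.6% were called here, so its size does not carry over. Adjusted p-values near 0.05 are still to be read with caution.

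Alternatives were pseudocounts of 0.5 and 5, no filter, TMM and quantile scaling, limma without its options, edgeR, DESeq2 1.42.0, the authors' table, a replicate block, and fits without 1 library or without letter C. Reads of a gene and its antisense partner cannot be told apart without a strand setting. GENCODE 29 (GRCh38) gave exons, and its coordinates matched the table for 7 of the 9 genes.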

Additional observations from a re-analysis of the deposited data

How the results depend on the processing

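Of 153 results (9 genes under 17 alternatives), 149 kept their direction and side of the threshold. Leaving out 1 library at a time, the log2 fold change of CDKN2B ran from -0.85 to -0.51 and that of CDKN1C from -0.22 to 0.04. CDKN2B lost its call without 72 h replicate B (-0.62) or C (-0.68), at fewer libraries, and CDKN1C, not called in any fit, was at or above 0 without 30 h replicate C (0.037) or 72 h replicate B (0.0030); the cause was not tested. Under every alternative 1 of the 9 genes was called higher and 6 or 7 lower, and of all genes 2450 to 3501 higher and 2597 to 3639 lower. Genes of the lists called numbered 23 to 33 higher and 49 to 62 lower. Counts of single lists that moved by more than 1.5 times were small. For the breakdown of p21 and p27, 2 rose, against 4 with quantile normalisation and 1 without a filter, without limma's options, by DESeq2, in the authors' deposited table and without any 1 library but 30 h replicate C. For the INK4 locus regulators 5 rose, against 3 in the authors' table and without 30 h replicate B or 72 h replicate A. There 3 fell, against 5 with the replicate block, without 72 h replicate C and without both libraries of letter C. For p53 targets 4 fell, against 7 without a filter.

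The reported fit did not take the replicate letters as pairs. Deviations from the group means correlated between same-letter libraries at 0.00696 (A), 0.172 (B) and 0.185 (C). The values of B and C were the highest of all pairings across the times. Both libraries of letter C also stood apart on the second component, and KRT19 had most reads in both B libraries. Whether the letters link libraries across the times is therefore not settled. The 30 h library A correlated best with 72 h library B (0.0956). With the letters as a replicate block 3271 genes were called higher and 3452 lower, and each of the 9 genes kept its direction and side of the threshold. Precision is limited by 3 libraries per group and, for CDKN1C, by 18 to 24 reads per library.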

Other observations

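Genes within 100 kb of the 9 genes moved in both directions. MTAP, which lies 30102 bases from CDKN2A and encodes an enzyme of methionine salvage, had 1516 ± 38.9 normalised counts at 30 h and 1517 ± 35.5 at 72 h (mean ± SD, n = 3), while CDKN2A and CDKN2B fell. Its log2 change was 0.00, adjusted p = 0.993 by limma. CDKN2B-AS1, the antisense RNA of this locus, had 2, 2 and 4 reads at 30 h and 6, 2 and 0 at 72 h, too few to be tested.

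FAF1, 482 bases from CDKN2C, fell from 793 ± 51.0 to 503 ± 46.4, or -0.66 as log2 fold change, against -2.04 for CDKN2C. LPAR6, a receptor gene inside RB1 on the opposite strand that shares no exon bases with it, had 81.9, 109 and 117 normalised counts at 30 h and 37.8, 34.9 and 43.0 at 72 h. Its log2 fold change of -1.38 (adjusted p = 0.000207) was lower than that of RB1, and the other neighbour called, ITM2B, had -0.44. KRI1, 425 bases from CDKN2D, rose by 0.41 on the log2 scale, and CNIH1, 3342 bases from CDKN3, by 0.34, each opposite to its neighbour. KEAP1 and PDE4A, further from CDKN2D, also rose (0.39 and 0.44), while SLC44A2, 33398 bases from it, fell as CDKN2D did (-0.69, adjusted p = 2.89e-05 by limma). Near CDKN1C, SLC22A18 rose (0.99) and PHLDA2 fell (-0.25), and near CDKN1A and CDKN1B none of the 2 and 3 genes tested passed.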
